A study of Mus musculus with 36 samples.

Results

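The comparison described here sets 4 libraries of leukaemia cells sorted from the central nervous system (CNS) against 4 libraries of the same sorted population from the bone marrow (BM) of the same 4 mice. The 8 libraries were chosen by their labels alone, as the LK/CLP libraries of the leukaemia arm, and were paired by the mouse identifier; they are 8 of the 36 libraries of the series. LK/CLP denotes cells that lack lineage and Sca-1 antigens and carry c-Kit, and is written LK here. All 4 mice carried Kmt2a-AFF1, an oncogenic fusion that joins a histone methyltransferase to a component of the transcription elongation machinery, and overexpressed a microRNA. The labels of the samples call it miR-130b, whereas the series' design text names miR-130a. Each mouse had reached terminal leukaemia and gave 1 BM and 1 CNS library of LK cells. The same arm holds 4 further mice sorted for HSC/MPP, the Sca-1 positive, Flt3 negative gate of stem and multipotent cells (HSC here), and 4 for LMPP, the gate with both Sca-1 and Flt3 that holds lymphoid-primed progenitors. In the non-leukaemic control arm, BM of 4 mice carried the same fusion with a scrambled microRNA (miR-scramble). The promoter driving the fusion and the ages of the animals were not in the labels used here.

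In healthy marrow the LK gate holds committed progenitors of red cells, megakaryocytes, mast cells, eosinophils, neutrophils and monocytes. Erythroid commitment is driven by the transcription factors Gata1 and Klf1, while neutrophil maturation passes from azurophil granules (Mpo, Elane) to secondary granules (Ltf, Camp, Lcn2) under Cebpe. Leukaemia carrying a Kmt2a fusion keeps a progenitor programme of Hoxa and Meis1 genes, and infant disease of this kind often involves the CNS, where cells live in the meninges and cerebrospinal fluid.

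The mature sequences of both candidate microRNAs are shown because the labels and the design text differ on which was overexpressed; capitals mark the seed, bases 2 to 8, which is the part that pairs with targets.
miR-130b-3p: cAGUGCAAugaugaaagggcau
miR-130a-3p: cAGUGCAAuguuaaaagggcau
Both are from RefSeq (build GRCm38.p6) and have 22 bases, of which 20 are the same base at the same position. The seed AGUGCAA is the same in both.

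Total counts ran from 11.2 to 16.8 M (M, the prefix mega) in the 4 BM libraries and from 18.2 to 28.7 M in the 4 CNS libraries, so every CNS library was deeper than every BM library. Sensory receptor genes, which these cells are not known to use, gave an estimate of reads spread along the genome. It was 8.49, 8.66, 3.80 and 0.942% of counts in BM of mice 1 to 4 and 1.08, 8.69, 8.30 and 1.07% in their CNS. BM held more of it than CNS in mouse 1, CNS more than BM in mouse 3, and the shares of both niches lay close together in mice 2 and 4. Log-scale expression profiles of the 8 libraries correlated pairwise at 0.929 to 0.985 across genes, which are not independent replicates. Levels below are CPM, the counts of a gene per M counts of genes above that background, scaled by trimmed mean of M values.

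Genes of the sorting antigens were at like levels in both niches. Kit, the receptor that defines the gate, averaged 208 CPM in BM libraries and 220 CPM in those of CNS. Ly6a, which encodes the excluded antigen Sca-1, was at 2.65 and 2.54 CPM. Il7r, the interleukin-7 receptor used to define common lymphoid progenitors (CLP), was at 3.65 and 3.46 CPM, and lay between 1.13 and 6.37 CPM in the 8 libraries. Flt3, which this gate does not select on, averaged 295 CPM in BM libraries and 273 CPM in those of CNS. Ptprc, the pan-leukocyte antigen CD45, was at 255 and 280 CPM, and the BM and CNS libraries overlapped for each of these 5 markers.

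Of 15865 genes above background, 1 was called (0.0063% of genes) at an adjusted p under 0.05 in the mouse-paired edgeR quasi-likelihood test with Benjamini-Hochberg adjustment. It was Sept8, and it was higher in CNS. At an unadjusted p under 0.05 there were 648 genes (4.08%), with 408 higher in CNS (2.57%) and 240 lower (1.51%). The median log2 fold change over all genes was 0.01, and the median standard error (SE) of a gene was 0.25. Genes with a CNS to BM ratio above 2-fold in either direction numbered 2285, 2324, 2233 and 1065 in mice 1 to 4; mouse 4 had the fewest. Higher values in CNS in all 4 mice were seen for 1355 genes (8.54%) and lower values in all 4 for 1008 (6.35%).

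Sept8 (ENSMUSG00000018398) encodes a septin, one of the GTP-binding proteins that form filaments beneath the plasma membrane and at the cleavage furrow. The GENCODE annotation of GRCm38, a build other than that of the counts, places it on the plus strand of chromosome 11 from 53519257 to 53549565. Its level in BM was 11.0, 1.30, 2.51 and 1.42 CPM in mice 1 to 4, and in CNS of the same mice 68.0, 9.69, 20.8 and 8.67 CPM. CNS exceeded BM in each mouse, by log2 ratios of 2.61, 2.72, 2.96 and 2.45, while the groups overlapped because BM of mouse 1 lay above CNS of mice 2 and 4. Sept8 rose in CNS by 2.79 ± 0.34 on the log2 scale (SE, n = 4 mice), or 6.90-fold, with an edgeR adjusted p of 0.0111. The raw counts behind these levels were 111, 10, 23 and 11 in BM and 961, 102, 277 and 134 in CNS. The exons of Sept8 would draw 44.8, 35.01, 18.4 and 3.86 counts from the estimated background in the BM libraries and 8.12, 49.2, 59.1 and 8.68 in the CNS libraries. All 4 CNS counts exceeded this expectation, as did 3 of 4 BM counts, and BM of mouse 2 lay below it. Against the filter of 3 times the expectation plus 10 counts, every BM count and the CNS count of mouse 2 fell short. The BM level under the fold change is therefore uncertain. The edgeR adjusted p was 0.107 to 0.229 when any 1 of the 4 mice was left out. Without LMPP mouse 3 and HSC mouse 1, which share the estimate of spread and were picked after seeing the data, it was 0.0618. Without the mouse block it was 1.

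Control marrow LK held far more Sept8 RNA than leukaemia marrow LK. The 4 control libraries averaged 122 ± 18.7 CPM (SD, n = 4; range 105 to 141), against 4.05 ± 4.64 CPM in leukaemia BM and 26.8 ± 28.0 CPM in leukaemia CNS. The control table was scaled separately from the leukaemia table, so no test was made across them. Every leukaemia library, from either niche, was below every control library, and the CNS libraries were nearer to the controls than BM of the same mouse. Of 21 septin and septin partner genes 15 were above background, 7 were higher and 8 lower in CNS, and the median log2 fold change was -0.00, against 0.01 over all genes. Sept3, a septin best known from neurons, had the next smallest p of this list and was also higher in CNS in each mouse, at 52.1, 18.5, 75.1 and 37.5 CPM in BM and 60.9, 85.3, 191 and 96.6 CPM in CNS. Its log2 fold change of 1.28 ± 0.39 did not pass (edgeR adjusted p = 0.943). Sept7 and Sept9, septins found in most cells, had log2 fold changes of -0.01 ± 0.18 and -0.03 ± 0.21.

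**Figure D1:**
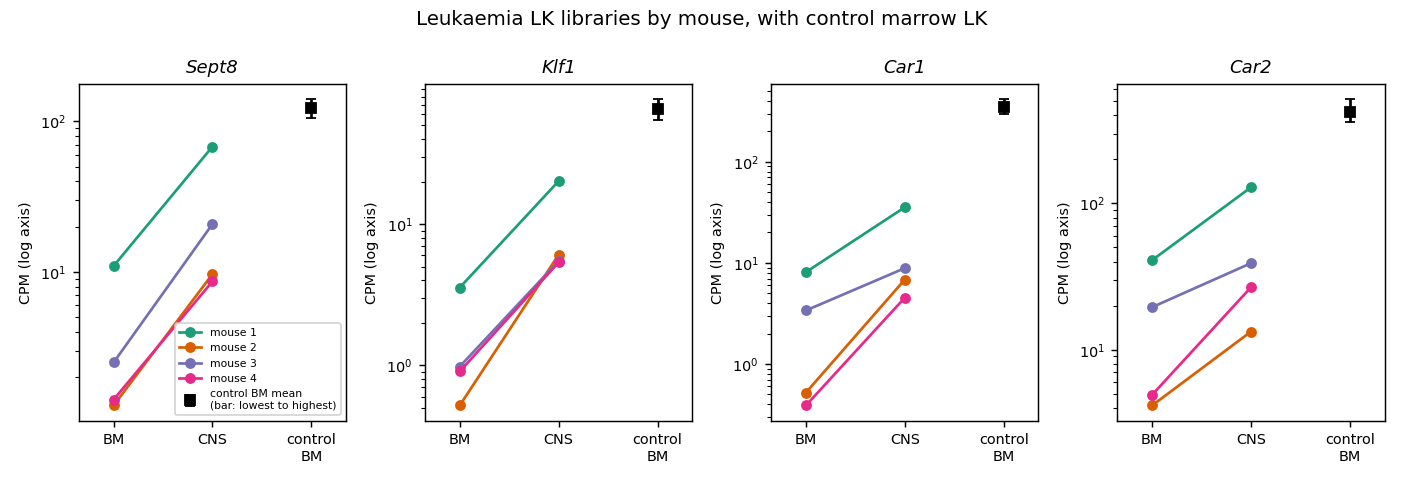
CPM (log axis) of Sept8, Klf1, Car1 and Car2 in the BM and CNS libraries of the 4 leukaemia mice, 1 colour and line per mouse, with the control BM LK mean and its lowest to highest value as a black square and bar (n = 4, scaled separately). Every line runs upward from BM to CNS, and every leukaemia point lies below the control range.

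Of the 4 genes of smallest p after Sept8, 3 are genes of the erythroid branch. Klf1, the transcription factor that drives terminal red cell differentiation, was at 3.56, 0.521, 0.982 and 0.906 CPM in BM and at 20.2, 6.08, 5.49 and 5.37 CPM in CNS. The groups did not overlap, which held for 132 genes higher in CNS (0.832% of genes). Its log2 fold change was 2.72 ± 0.47, and its edgeR adjusted p of 0.188 missed the threshold. Car2, a carbonic anhydrase that appears early in erythroid commitment, was at 40.9, 4.17, 19.5 and 4.92 CPM in BM and 129, 13.3, 39.0 and 26.7 CPM in CNS. BM and CNS overlapped between mice, but CNS was the higher in each of them, with a log2 fold change of 1.66 ± 0.29 (edgeR adjusted p = 0.188). Car1, its neighbour on chromosome 3 and a marker of early erythroid colonies, was at 8.11, 0.521, 3.38 and 0.389 CPM in BM and 35.5, 6.84, 8.87 and 4.53 CPM in CNS. Mouse 1 was again the highest in both niches, and the log2 fold change was 2.51 ± 0.48 (edgeR adjusted p = 0.406). Car1 overlaps the predicted gene Gm16399 on the same strand in GENCODE, so reads there could belong to either.

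Low counts limit these ratios. Klf1 had 36, 4, 9 and 7 counts in BM and 285, 64, 73 and 83 in CNS, and its BM count in mouse 2 lay below the 8.80 expected from background. Car1 had 82, 4, 31 and 3 counts in BM and 502, 72, 118 and 70 in CNS, and BM of mouse 2 was likewise below its expected 7.18. Every BM count of Klf1 fell short of the background filter. With dispersion estimated from the 8 LK libraries alone, the paired edgeR test called 36 genes, among them Klf1 (adjusted p = 0.0190), Car2 (0.0105) and Car1 (0.0269). DESeq2 on all 24 libraries called 14 genes and also included these 3. No other setting run called any of the 3. Control marrow LK stood above every leukaemia library for all 3, at 65.7 ± 11.6 CPM for Klf1, 420 ± 74.1 CPM for Car2 and 350 ± 51.4 CPM for Car1 (SD, n = 4, scaled separately).

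The stretch of DNA before the Klf1 start is shown because Klf1 had the smallest p after Sept8; it ends 1 base before the first exon in GENCODE, is given 5′ to 3′ on the plus strand, and comes from RefSeq (GRCm38.p6, chr8:84901732-84901927).
Klf1: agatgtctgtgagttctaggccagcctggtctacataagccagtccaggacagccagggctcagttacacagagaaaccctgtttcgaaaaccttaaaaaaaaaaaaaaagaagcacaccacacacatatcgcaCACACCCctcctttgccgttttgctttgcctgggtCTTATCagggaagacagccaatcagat
Capitals mark the matches to GATAAG, a form of the site that GATA factors bind, searched on both strands as GATAAG and CTTATC, and to CACACCC, a form of the CACC box that Klf factors bind, searched as CACACCC and GGGTGTG. The motifs do not overlap each other here, and they were chosen after the sequence was seen. Among 32851 promoter windows of the same 196 bases, 5.41% held the first, 5.30% the second and 0.207% both. Sept8, listed as Septin8, had 2 such windows, and 0 of them held either motif. Promoter entries were matched for 2 of the 4 genes plotted by mouse.

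Across the whole erythroid list, 18 of 25 genes were above background, 15 were higher in CNS and 3 lower, and the median log2 fold change was 1.20. That median was 1.15, 0.49, 1.14 and 1.79 in mice 1 to 4. Besides Sept8, which is not in the list, no gene passed the adjusted test. At an unadjusted p under 0.05, 9 of the 18 were higher (2.57% of all genes), and 8 of 18 were higher in all 4 mice (8.54% of all genes). The background filter asks for 4 of 24 libraries, so a gene can enter through the 4 CNS LK libraries alone. Klf1 cleared it in each CNS LK library and in no BM LK library. The counts of higher genes are therefore not independent of the filter. Gata1, the master regulator of the lineage, was at 4.94, 3.26, 3.06 and 1.04 CPM in BM and 22.01, 8.08, 5.94 and 4.53 CPM in CNS. CNS was higher in each mouse, with a log2 fold change of 1.62 ± 0.49 (edgeR adjusted p = 0.943). The membrane and cytoskeletal genes Aqp1, Ermap and Ank1, of the red cell water channel, a blood group antigen and ankyrin, had log2 fold changes of 2.48 ± 0.81, 2.14 ± 0.71 and 1.38 ± 0.41. Each of the 3 was higher in CNS in all 4 mice. The adult beta-globins Hbb-bs and Hbb-bt went the other way in 3 of 4 mice, with log2 fold changes of -0.25 ± 0.53 and -0.22 ± 0.49. The alpha-globins Hba-a1 and Hba-a2 had 1.48 ± 0.78 and 1.62 ± 0.74, so the globins did not share a sign. Tfrc, the transferrin receptor that dividing cells of every lineage use, was at 0.07 ± 0.22. Gfi1b, shared by the erythroid and megakaryocyte branches, was at -0.11 ± 0.25. The list's summed level ranged from 300.4 to 635.9 CPM in BM and from 340.4 to 1028 CPM in CNS. In RNA of sorted bulk cells, fewer cells of a type and less RNA per cell cannot be told apart. The part of admixed erythroid progenitors in these values was not tested.

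Genes of haem synthesis and iron handling leaned the same way by less. All 18 were above background, 15 were higher in CNS, and the median log2 fold change was 0.18. Cpox, an enzyme of haem synthesis, had a log2 fold change of 0.81 ± 0.25, and the iron genes Slc11a2 and Tfr2, a transporter and a receptor, had 0.66 ± 0.25 and 0.56 ± 0.23. None passed after adjustment; 4 of 18 were higher at an unadjusted p under 0.05 (2.57% of all genes). The median was 0.10 without mouse 1.

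**Figure D2:**
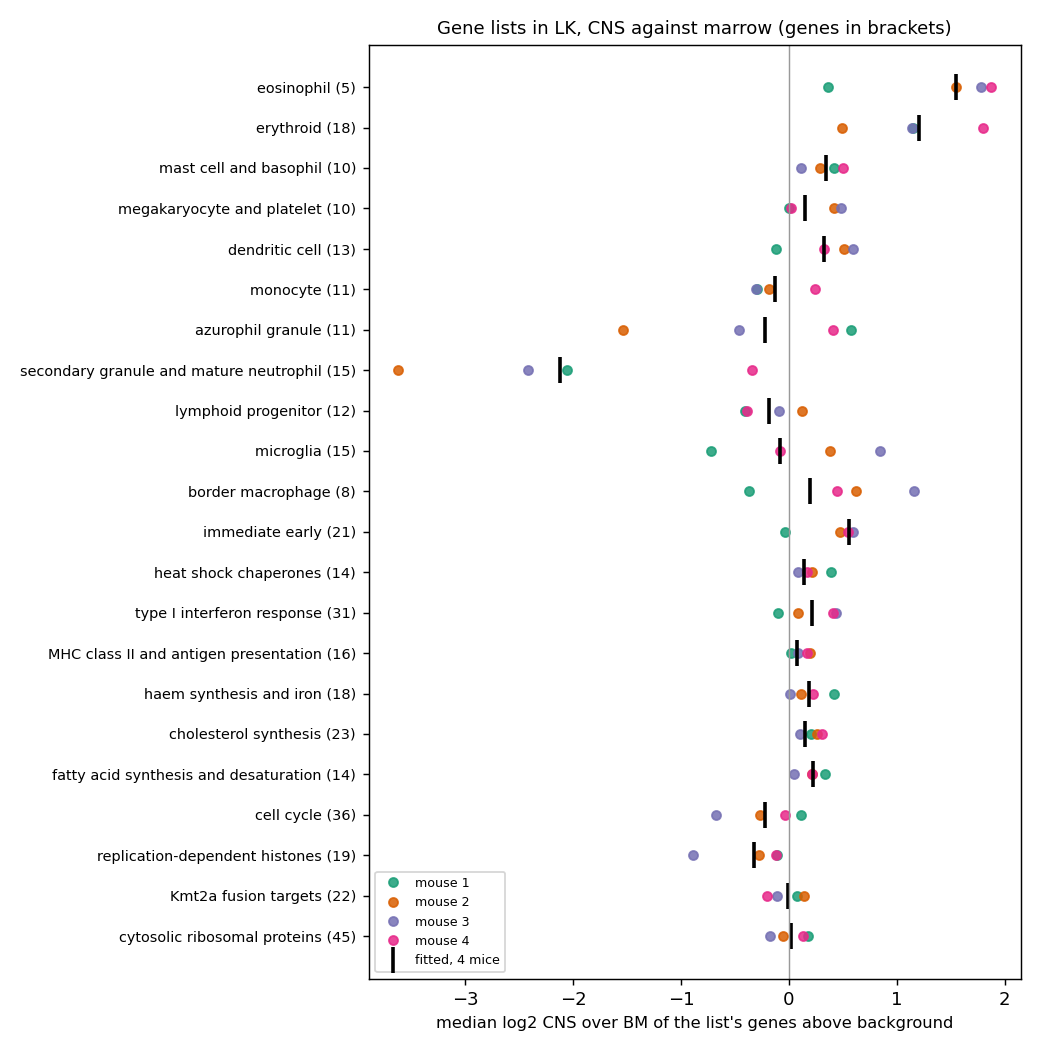
Median log2 CNS-to-BM ratio over the genes of each list that were above background (their number in brackets), for each of the 4 mice (coloured points) and for the fitted log2 fold changes (black bar). Eosinophil and erythroid lists lie right of 0 in all 4 mice. So do, with smaller fitted medians, the mast cell and basophil, heat shock, antigen presentation, haem, cholesterol synthesis and fatty acid synthesis lists. The secondary granule and histone lists lie left of 0 in all 4 mice. The fitted medians of ribosomal protein genes and fusion targets are 0.01 and -0.01.

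The eosinophil granule genes Prg2, Prg3 and Epx were also higher in CNS. Of 9 listed genes 5 were above background, and all 5 had positive log2 fold changes with a median of 1.55. In all 4 mice 3 of the 5 were higher (8.54% of all genes), and here too a gene can pass the filter through CNS libraries alone. Prg2, the major basic protein of eosinophil granules, was at 12.1, 56.9, 17.6 and 15.5 CPM in BM and 73.1, 141, 66.2 and 92.3 CPM in CNS. No CNS library was as low as any BM library, and the log2 fold change was 2.09 ± 0.53 (edgeR adjusted p = 0.845). Prg3, its homologue and neighbour on chromosome 2, was at 1.48, 2.86, 0.982 and 0.647 CPM in BM and 3.40, 9.79, 5.41 and 5.11 CPM in CNS, a log2 fold change of 2.05 ± 0.66. Epx, the eosinophil peroxidase, had 1.55 ± 0.87. Siglecf, a surface receptor of mature eosinophils, had 0.13 ± 0.28, and Ear2 had 0.27 ± 1.14. Ear1, Ear6, Il5ra and Ccr3 did not reach the background threshold. In the paired test on the 8 LK libraries alone Prg2 was called, with an adjusted p of 0.00279.

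Mast cell and basophil genes showed a smaller shift, with a median log2 fold change of 0.35. Of 10 genes above background 8 were higher in CNS (51% of all genes), and 4 were higher in all 4 mice (8.54% of all genes). Here too a gene can pass the filter through CNS libraries alone. Ms4a2, the beta chain of the IgE receptor, had 1.20 ± 0.46, and Il1rl1, the interleukin-33 receptor carried by mast cells and eosinophils, had 1.351 ± 0.611. Both were higher in CNS in all 4 mice. Cpa3 and Gata2, early and abundant in the mast cell branch, had 0.47 ± 0.34 and 0.14 ± 0.23. Alox5 and Lmo4 went the other way, at -0.65 ± 0.34 and -0.19 ± 0.22, and Alox5 was lower in CNS in all 4 mice. The mast cell proteases Cma1, Tpsb2 and Tpsab1 did not reach the background threshold. Megakaryocyte and platelet genes had a median log2 fold change of 0.15. Of 10 genes above background 9 were above 0 (51% of all genes), and 1 was higher in all 4 mice (8.54% of all genes).

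Secondary granule genes of neutrophils gave the largest shift toward BM among the 49 lists. Of 16 genes 15 were above background, 13 were lower in CNS, and the median log2 fold change was -2.12. At an unadjusted p under 0.05, 10 of 15 were lower (1.51% of all genes), and 11 of 15 were lower in all 4 mice (6.35% of all genes). Camp, the antimicrobial peptide cathelicidin, was at 50.6, 995, 1106 and 151 CPM in BM and 9.84, 52.6, 129 and 99.1 CPM in CNS. BM of mice 2 and 3 stood well above the rest, BM of mouse 1 lay below CNS of mice 2 to 4, and mouse 4 differed by a log2 ratio of only -0.60. The log2 fold change of Camp was -2.61 ± 0.86 (edgeR adjusted p = 0.98). The paired edgeR test on the 8 LK libraries alone called Camp (adjusted p = 0.0386), Ltf, the lactoferrin gene (0.0290), and Ngp, a neutrophil granule protein (0.0454). Lcn2, a siderophore-binding protein of the same granules, had -2.12 ± 0.78, and Cd177, a neutrophil surface protein, had -1.92 ± 0.60 (edgeR adjusted p = 0.943). The list's summed level was 860.2, 11380, 15120 and 2052 CPM in BM of mice 1 to 4 and 301.7, 846.0, 2429 and 1631 CPM in CNS. BM of mice 2 and 3 held the most, and mouse 4 had the smallest difference between niches. Control marrow LK lay below every leukaemia library for both Camp and Lcn2, with 2.47 ± 0.735 CPM of Camp and 4.59 ± 1.11 CPM of Lcn2 (SD, n = 4, scaled separately). The gate excludes lineage-positive cells. Ly6g, a surface marker of neutrophils, did not reach the background threshold and lay between 0 and 4.15 CPM in the 8 libraries. The part of residual neutrophils in the secondary granule values was not tested.

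Genes of the earlier azurophil granule stage, 11 of them above background, had a median log2 fold change of -0.23, with mouse medians of 0.58, -1.54, -0.47 and 0.41. It ranged from -0.59 without mouse 1 to 0.23 without mouse 2, with the values without mouse 3 or 4 in between. Mpo, the myeloperoxidase of this granule, was at 1651, 2173, 2472 and 1759 CPM in BM and 2319, 1236, 1975 and 2523 CPM in CNS, so mice 1 and 4 were higher in CNS and mice 2 and 3 lower. Fcnb, a ficolin of late promyelocytes, and Cebpe, the factor that switches on secondary granules, had -2.29 ± 0.79 and -1.27 ± 0.55.

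Apart from granule proteins, the genes of smallest p that were lower in CNS included signalling and effector genes of myeloid cells. Prkcb, a protein kinase C of leukocyte signalling, was at 11.96, 38.5, 51.3 and 9.19 CPM in BM and 2.48, 13.7, 17.2 and 6.92 CPM in CNS. It was lower in CNS in each mouse, least in mouse 4, with a log2 fold change of -1.43 ± 0.29 (edgeR adjusted p = 0.413). Fgr, a Src-family kinase of myeloid cells, was at 13.6, 38.4, 46.4 and 28.0 CPM in BM and 5.95, 20.0, 23.2 and 18.1 CPM in CNS, a log2 fold change of -0.94 ± 0.19 (edgeR adjusted p = 0.472). Cybb, the catalytic subunit of the phagocyte oxidase, was at 28.4, 256, 317 and 62.8 CPM in BM and 10.3, 28.7, 59.9 and 43.6 CPM in CNS, a log2 fold change of -1.90 ± 0.53. F5, coagulation factor V, had -1.81 ± 0.49, Ets1, a transcription factor of lymphoid and other blood cells, had -0.99 ± 0.28, and Ceacam1, an adhesion receptor, had -0.81 ± 0.23. The paired edgeR test on the 8 LK libraries alone called Prkcb (adjusted p = 0.0355), Fgr (0.0303), Cybb (0.0386) and F5 (0.0383), and DESeq2 called Prkcb (0.00519) and Fgr (0.0309). For all 6, BM of mice 2 and 3 gave the highest levels, as it did for the secondary granule genes, and the groups overlapped. The other 6 of the 12 with smallest p had smaller differences, from -0.78 to -0.65. In Myo18b, a myosin, Mgst2, a glutathione transferase of membranes, and Cracr2a, a calcium-sensing regulator of store-operated channels, the groups did not overlap, as for 140 genes lower in CNS (0.882% of genes). Myo18b was at 60.9, 91.9, 67.2 and 77.8 CPM in BM and 43.5, 45.1, 41.2 and 58.0 CPM in CNS, with every BM library above every CNS library and a log2 fold change of -0.66 ± 0.16 (edgeR adjusted p = 0.836).

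**Figure D3:**
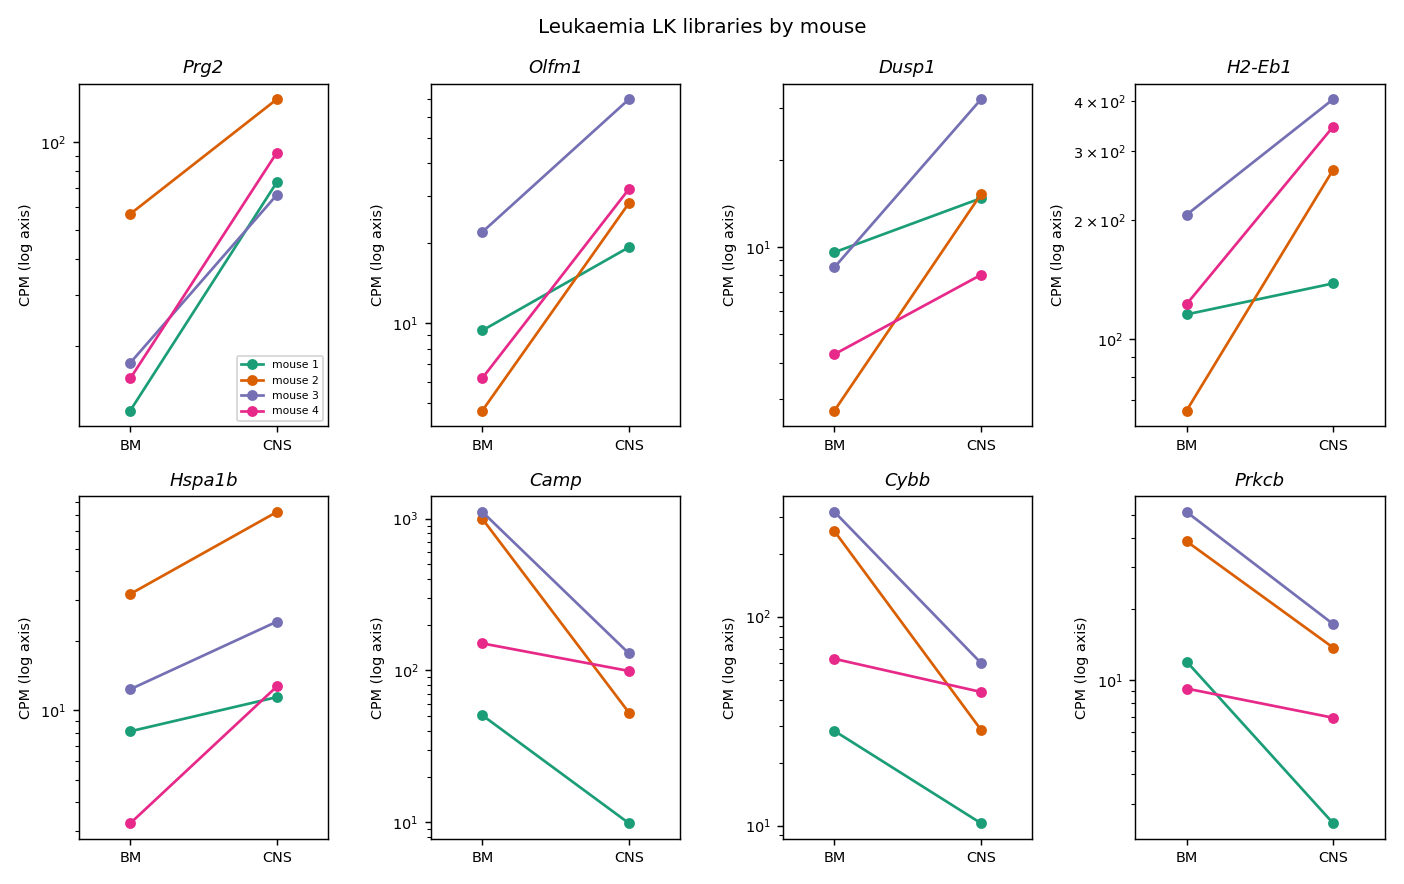
CPM (log axis) of 8 genes in BM and CNS libraries of the 4 leukaemia mice, 1 colour and line per mouse. Prg2, Olfm1, Dusp1, H2-Eb1 and Hspa1b were higher in CNS in every mouse, and Camp, Cybb and Prkcb were lower in every mouse, with the flattest line of those 3 in mouse 4.

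Among the non-erythroid genes of smallest p that were higher in CNS, Olfm1, a secreted glycoprotein known from the nervous system, was at 9.39, 4.69, 22.1 and 6.21 CPM in BM and 19.3, 28.3, 69.7 and 32.0 CPM in CNS. Its log2 fold change was 1.88 ± 0.33 with an edgeR adjusted p of 0.188, the smallest after Sept8 together with Klf1 and Car2. Anpep, the aminopeptidase CD13 of myeloid progenitors, was at 18.2, 9.77, 20.0 and 14.8 CPM in BM and 26.4, 46.8, 86.5 and 58.0 CPM in CNS. Its groups did not overlap, although mouse 1 differed by a log2 ratio of only 0.53, and the log2 fold change was 1.72 ± 0.41. Myadm, a membrane protein of myeloid cells, had 0.98 ± 0.24. Gclm, the modifier subunit of the enzyme that starts glutathione synthesis, had 0.84 ± 0.22. Rec8, known as a meiotic cohesin, had 0.83 ± 0.20. Cd36, a fatty acid and lipid scavenger receptor, had 1.74 ± 0.50 with log2 ratios of 0.56, 3.33, 1.39 and 2.07 in mice 1 to 4. The mitochondrial transfer RNA mt-Ts1 had 2.38 ± 0.59, and it overlaps the more abundant mt-Co1, so its counts could be split with that gene.

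Immediate early genes, which cells switch on within minutes of a stimulus, were shifted toward CNS in 3 of 4 mice. Of 21 genes above background 18 had positive log2 fold changes (51% of all genes), and 7 were higher in all 4 mice (8.54% of all genes). The median was 0.56, with mouse medians of -0.04, 0.47, 0.60 and 0.55, and it was 0.28 without mouse 2. Dusp1, a phosphatase that ends MAP kinase signalling, was at 9.59, 2.73, 8.51 and 4.27 CPM in BM and 14.7, 15.2, 32.3 and 8.02 CPM in CNS, a log2 fold change of 1.45 ± 0.39 (edgeR adjusted p = 0.845). Ier5 and Junb had 0.81 ± 0.25 and 0.61 ± 0.21, and Fosl2 and Nr4a2 had -0.26 ± 0.20 and -0.26 ± 0.30. The stress-inducible heat shock genes Hspa1b and Hspa1a had 1.11 ± 0.28 and 1.00 ± 0.32 and were higher in CNS in all 4 mice. Over the 14 chaperone genes above background the median was 0.14, and between 0.06 (without mouse 1) and 0.26 (without mouse 2) with a mouse left out. CNS and BM cells come from tissues that are dissociated differently, and the part of handling in these genes was not tested.

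Of 16 antigen presentation genes, 4 were higher in CNS in all 4 mice (8.54% of all genes), and these 4 are class II genes. H2-Eb1, a class II chain, was at 115, 65.8, 206 and 122 CPM in BM and 138, 269, 405 and 346 CPM in CNS. The difference was smallest in mouse 1 (log2 ratio 0.26) and largest in mouse 2 (2.03), and the log2 fold change was 1.19 ± 0.41. H2-Ab1, H2-Aa and the invariant chain Cd74 had 1.12 ± 0.40, 1.03 ± 0.36 and 0.99 ± 0.39. Ciita, their transactivator, had 0.49 ± 0.35 and was higher in 3 mice. The class II genes H2-DMb1 and H2-DMa had 0.48 ± 0.29 and 0.05 ± 0.23, and were higher in 3 and 2 mice. H2-K1, H2-D1 and B2m of class I lay at 0.07 ± 0.24, 0.03 ± 0.26 and 0.07 ± 0.24, and the whole list of 16 had a median of 0.07 (0.12 without mouse 3). In control marrow LK, H2-Eb1 averaged 12.3 ± 3.01 CPM (SD, n = 4, scaled separately), below every leukaemia library. Of 13 dendritic cell genes 7 were higher and 6 lower in CNS, with a median of 0.32 (0.13 without mouse 2) and -0.12 in mouse 1. Xcr1 and Zbtb46, of conventional dendritic cells, had 1.09 ± 0.45 and 0.96 ± 0.36. Siglech and Cd209a, of plasmacytoid and monocyte-derived cells, had -0.34 ± 0.43 and -0.28 ± 0.26. Other members of the list were closer together. Clec9a, Batf3 and Irf7 had 0.32 ± 0.27, 0.37 ± 0.37 and 0.48 ± 0.27, and Cadm1 and Tcf4 had -0.15 ± 0.53 and -0.12 ± 0.16. The part of dendritic cells in the class II values was not tested. Of 31 type I interferon response genes 22 were above 0 with a median of 0.21 (0.12 without mouse 4); Slfn5, a member of the interferon-induced Schlafen family, had 1.05 ± 0.28 and groups that did not overlap.

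Lipid synthesis genes lay slightly toward CNS. In cholesterol synthesis 20 of 23 genes above background had positive log2 fold changes, with a median of 0.15. Fatty acid synthesis and desaturation had 13 of 14 genes above 0 and a median of 0.22 (0.15 without mouse 4), with the desaturases Scd2 at 0.55 ± 0.23 and Fads2 at 0.38 ± 0.14. Over all genes tested 51% were above 0. Nuclear genes of oxidative phosphorylation had a median of 0.02, glycolysis 0.02, the hypoxia response 0.04 and cytosolic ribosomal proteins 0.01.

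Proliferation genes lay slightly toward BM. All 36 cell cycle genes were above background, 4 were higher in CNS, and the median log2 fold change was -0.23, with mouse medians of 0.12, -0.27, -0.68 and -0.04; it was -0.08 without mouse 3. Foxm1, the factor of the G2 and M phase programme, was at 62.1, 77.2, 98.5 and 100.2 CPM in BM and 45.6, 58.3, 50.1 and 82.9 CPM in CNS, a log2 fold change of -0.52 ± 0.16. Birc5 and Kif11, of the spindle, had -0.46 ± 0.19 and -0.41 ± 0.19. None of 19 replication-dependent histone genes above background was higher in CNS, 15 were lower in all 4 mice (6.35% of all genes), and the median was -0.32, or -0.16 without mouse 3. Hist1h1c, a linker histone, was at 701, 1077, 1487 and 1200 CPM in BM and 643, 683, 601 and 1102 CPM in CNS, and the log2 ratio was largest in mice 2 and 3. At an unadjusted p under 0.05, 5 of 36 cell cycle genes and 0 of 19 histone genes were lower, against 1.51% of all genes, and 0 passed the adjusted edgeR test.

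Of 26 targets of the fusion 22 were above background, 10 were higher and 12 lower in CNS, and the median was -0.01. Hoxa9, Hoxa10 and Meis1, the core of this programme, had log2 fold changes of 0.09 ± 0.16, 0.15 ± 0.18 and 0.28 ± 0.24. Hoxa9 was at 133, 114, 104 and 157 CPM in BM and 157, 134, 112 and 135 CPM in CNS, and the groups overlapped.

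Markers of cells that reside in the CNS were examined next. Of 16 microglia genes 15 were above background, 7 were higher and 8 lower in CNS, and the median was -0.08, with mouse medians of -0.72, 0.38, 0.85 and -0.08. It was 0.34 without mouse 1 and -0.26 without mouse 3, with the values without mouse 2 or 4 in between. Their summed level was 349.7 to 547.4 CPM in BM and 281.3 to 562.0 CPM in CNS. Most of it was Selplg alone, at 256.2 to 401.7 CPM in BM and 225.9 to 434.5 CPM in CNS. P2ry12, which defines microglia, was at 0.437 to 1.88 CPM in BM and 0.970 to 3.61 CPM in CNS. Border macrophage genes had a median of 0.19 (0.82 without mouse 1, 0.03 without mouse 3, in between without mouse 2 or 4), and 298.5 to 709.0 CPM in CNS against 349.2 to 539.2 CPM in BM. Most of that sum was F13a1, which is also in the monocyte list, at 223 to 673 CPM in CNS and 286.8 to 505.1 CPM in BM. Apoe, a lipid carrier abundant in such macrophages, was at 12.3, 10.5, 8.19 and 7.51 CPM in BM and 14.7, 22.2, 20.4 and 10.0 CPM in CNS, higher in each mouse. In the HSC libraries the microglia and border macrophage lists had medians of 1.64 and 1.62, and in the LMPP libraries 1.33 and 2.28. Only 1 of 12 neuron genes and 3 of 12 oligodendrocyte genes were above background, with medians of -0.08 and 0.34. Of the genes of these 4 lists, 0 were without counts in all 8 libraries. The part of resident cells in the values above was not tested.

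**Figure D4:**
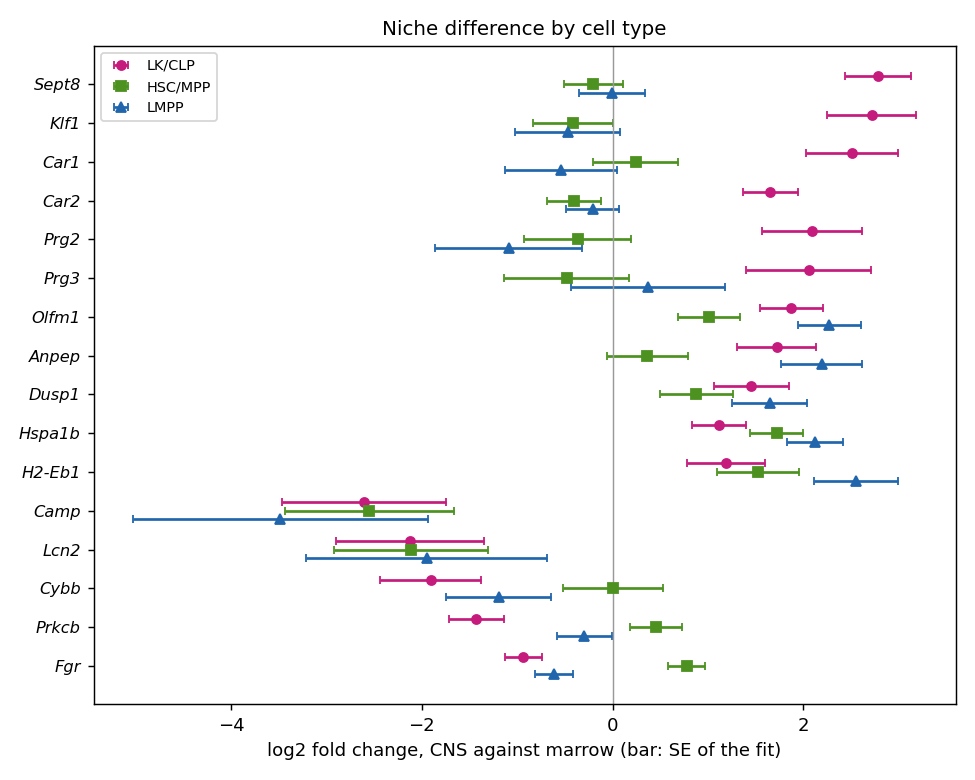
Log2 fold change of CNS against BM for 16 genes in LK, HSC/MPP and LMPP cells (4 mice each), with the SE of the paired fit as a bar. Sept8, Klf1, Car1, Car2, Prg2 and Prg3 lie right of 0 in LK, while the bars of Camp and Lcn2 overlap between all 3 cell types.

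The mice sorted for LK, HSC and LMPP are different animals, so cell type cannot be told apart from the set of mice. Within this limit, the niche differences of the 3 cell types were set against each other. In HSC, Sept8 averaged 19.3 ± 4.21 CPM in BM libraries and 16.7 ± 2.87 CPM in those of CNS (SD, n = 4), and in LMPP 3.56 ± 1.09 and 4.03 ± 3.34 CPM. Its log2 fold change was -0.20 ± 0.31 in HSC and -0.01 ± 0.34 in LMPP. The LK difference exceeded that of HSC by 2.99 ± 0.46 (edgeR adjusted p = 0.116) and that of LMPP by 2.79 ± 0.50 (adjusted p = 0.604), neither of which passed in edgeR. DESeq2 on the same paired libraries called both, with adjusted p of 6.409e-05 and 0.00505. Klf1 and Car2 likewise had negative log2 fold changes in HSC (-0.42 ± 0.42 and -0.40 ± 0.28) and in LMPP (-0.47 ± 0.55 and -0.21 ± 0.28). Their differences between LK and HSC were 3.14 ± 0.62 and 2.06 ± 0.40 (edgeR adjusted p = 0.512 for each). DESeq2 called both of these as well (adjusted p = 0.000677 and 0.00181), and both against LMPP (0.0134 and 0.0144). The erythroid list had a median of 0.13 in HSC and -0.23 in LMPP. Fgr pointed up in HSC, at 0.78 ± 0.19, and the LK minus the HSC difference was -1.71 ± 0.27 (edgeR adjusted p = 0.116; DESeq2 adjusted p = 0.00016).

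Other genes had the same sign in all 3 cell types. Olfm1 had log2 fold changes of 1.88 ± 0.33 in LK, 1.01 ± 0.33 in HSC and 2.27 ± 0.33 in LMPP, where it passed (edgeR adjusted p = 0.0118). H2-Eb1 had 1.19 ± 0.41, 1.52 ± 0.43 and 2.55 ± 0.44, and Hspa1b had 1.11 ± 0.28, 1.72 ± 0.28 and 2.12 ± 0.29. Camp had -2.61 ± 0.86, -2.55 ± 0.89 and -3.48 ± 1.55. Over all genes the same paired edgeR test called 0 genes in HSC (0%); at an unadjusted p under 0.05 there were 1063 (6.7%), with 3.35% of genes higher and 3.35% lower. In LMPP it called 321 (2.02%), with 1.67% of genes higher and 0.353% lower; unadjusted, 12.5% were under 0.05, 7.07% higher and 5.43% lower. For the difference between LK and HSC it called 0 genes, with 773 (4.87%) at an unadjusted p under 0.05, 3.06% higher and 1.82% lower. For the difference between LK and LMPP it called 0, with 827 (5.21%), 2.16% higher and 3.06% lower. DESeq2 called 13 and 5 genes for these differences, including those given above.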

How the data were processed

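Per the labels' protocols, RNA of freshly sorted cells went into a stranded total RNA kit for low input. The authors deposited whole counts per gene for 24 leukaemia and 12 control libraries in separate tables. Although these tables are named as normalised, their values are whole and their totals unequal, so they were used as unscaled counts. DESeq2 and GRCm39 are named in the submitters' processing notes; aligner, counter, strand setting: not given in the sources used here. Therefore, overlapping and antisense genes are uncertain.

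Symbols and exon lengths came from GENCODE vM21 (GRCm38), for 52133 of 55414 identifiers. In LK libraries 29.9 to 47.4% of counts fell on identifiers lacking a symbol. Counts per kb of 1463 sensory receptor genes set each library's background. Genes with counts above 3 times the background for their length plus 10, in at least 4 of 24 libraries, were tested (15865). edgeR 4.0.16 (quasi-likelihood, TMM) in R 4.3.3 was fitted to all 24 libraries, with mouse as a block and niche within each cell type; p-values were adjusted over all genes, with a threshold of 0.05. Per-mouse log2 ratios used a prior count of 2. BM and CNS libraries come from the same animal by their mouse identifier; deviations from the group means correlated by 0.04, 0.40, 0.20 and 0.69 within mice 1 to 4. CNS of mice 1, 2 and 3 correlated more with BM of another mouse (0.33, 0.45 and 0.27), so the pairing rests on the identifier. On simulated counts of this comparison (15865 genes), 22 of 50 genes changed 2-fold and 45 of 50 changed 4-fold were recovered, with 13 false calls. The changed genes were drawn only from those of higher mean level, and each simulated mouse effect was the same in both niches. Recovery of genes of low mean level was therefore not measured.

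Genes were named by rule: those called, the 12 of smallest p in each direction with the same sign in all 4 mice, up to 4 of smallest p per list, 7 sort and stage markers, and the 3 of smallest p in each difference between cell types; further list members named as examples were chosen after their values were seen. The comparison, the 49 lists and the rule were chosen with earlier results of these data known. Alternatives were no mouse block, other gene filters, RLE scaling, DESeq2 1.42.0, limma-trend 3.58.1, the 8 LK libraries alone, and each LK mouse left out. Results of some genes that the rule names are not reported here.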

Additional observations from a re-analysis of the deposited data

Results flagged for a closer look

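In 6 of 127 groups of 4 mice (4.72%), 1 mouse stood apart from the rest by more than Dixon's critical share of the range. The groups were log2 ratios of CNS to BM of genes and lists, plus depth, background share and share without a symbol of libraries. All flagged values were log2 ratios of CNS to BM. Chance gives this in about 1 in 20 groups of unselected values, but many of these genes were named for small p and a shared sign. Mouse 1 stood low for 3 genes: Epx, the eosinophil peroxidase, at 0.36 against 1.78 to 1.92 in mice 2 to 4, Anpep at 0.53 against 1.96 to 2.24, and Xcr1, a receptor of cross-presenting dendritic cells, at -0.075 against 1.32 to 1.54. The median of endothelium genes was also low in mouse 1, at -1.19 against -0.10 to 0.08. In mouse 1 the background share was 8.49% in BM and 1.08% in CNS; the part of background in these values was not tested. Mouse 4 stood high for Slc11a2, an iron transporter, at 1.16 against 0.46 to 0.53, and for the hypoxia response median, at 0.26 against -0.040 to -0.005.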

How the results depend on the processing

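The count of genes called between CNS and BM of LK was 1, and 0 with no replicate block (385 at an unadjusted p under 0.05 in edgeR), 2 with no filter on low counts (Sept8 and mt-Tk), 14 in DESeq2 (12 higher, 2 lower) and 36 when only the 8 LK libraries were fitted (26 higher, 10 lower). It was 1, Sept8, with a filter of 10 counts in 4 libraries, with RLE scaling and in limma-trend. Without each LK mouse in turn it ranged from 0 to 0, with 281 to 855 genes at an unadjusted p under 0.05, and each of these fits had fewer samples. Without LMPP mouse 3 and HSC mouse 1, an alternative chosen after seeing the data, it was 0 (794 at an unadjusted p under 0.05). Genes called for the difference between LK and HSC and between LK and LMPP were 0 in all settings run but DESeq2, which called 13 and 5. The fitted log2 fold change of Sept8 ranged from 2.69 to 3.02. Of the named genes' values under alternatives, 836 kept their side of the threshold and direction, 22 passed where they had not (8 in DESeq2, 14 with the 8 LK libraries only), 6 no longer passed (all Sept8), and 0 changed sign; the cause was not tested. Of list medians, 556 moved by less than the spread between mice and 32 by more, most of them with the background filter dropped or replaced. Depth limits Klf1, Car1 and Sept8 in BM, where some libraries held 3 to 11 counts. The block is the animal, so BM and CNS are paired by it.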

Other observations

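Lymphoid progenitor genes lay slightly toward BM, with 12 of 22 above background, 3 higher in CNS and a median log2 fold change of -0.18. The mouse medians were -0.40, 0.12, -0.09 and -0.39, and the fitted median ranged from -0.27 to 0.015 over the settings run. In edgeR 0 of the 12 had an unadjusted p under 0.05, and 2 were lower in all 4 mice (6.35% of all genes). The 13 genes encoded by the mitochondrial genome were all above 0 in the fit, with a median of 0.19 that was 0.08 without mouse 1. Among the unfolded protein response genes 14 of 16 were above 0, with a median of 0.18 that was 0.06 without mouse 1; the medians of mice 2 and 3 were -0.01 and -0.06. Id1, an inhibitor of differentiation factors, had -1.87 ± 0.63, and Mgst1, a glutathione transferase of membranes, had -2.47 ± 0.88; neither passed the edgeR test after adjustment.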
